A study of Mus musculus with 12 samples.

Results

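Kidney collecting duct cells that carry an Actr3 knockout and were given the dynein inhibitor ciliobrevin D were compared with cells of a line that lacks both Actr3 and Ift88. The comparison takes 6 of the 12 libraries of the study, 3 from each group, and 13544 of the 27179 genes in the deposited table, those that reach a value of 10 in 3 or more of the 6 libraries. All cells are mIMCD3, an epithelial line of the mouse kidney's inner medullary collecting duct. The first group, called Actr3 KO + CB here, is the line named Actr3 KO-1 with 0.5 µM ciliobrevin D in its serum-free medium. The second, called dKO, is the line named Actr3-Ift88 dKO, which was handled as a control, the protocol naming a solvent. By the sample titles, the untreated Actr3 KO-1 line and a wild type line named Control 1, both also handled as controls, gave 3 libraries each. Their levels are printed beside the comparison. One control column of the deposited values has a name that could mean another control line, and control levels include it. Every group grew to confluence over 48 h with 10% fetal calf serum (FCS) and then went without serum for 24 h. Both groups of the comparison lack Actr3, so they differ in the inhibitor, in Ift88 and in being separate lines, and these cannot be told apart. Each genotype is 1 line by these titles. Nothing in the labels says that the 3 libraries of a group are 3 cultures, so each p-value measures only the spread between these samples, part or all of which may be technical. In bulk RNA, fewer cells in a state and less RNA per cell cannot be told apart.

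ARP3, the product of Actr3, is a core part of the Arp2/3 complex, which starts new actin filaments as branches on existing ones. Ift88 encodes a part of the IFT-B complex, which carries cargo along the axoneme of the primary cilium and is needed to build it. Cytoplasmic dynein 2 is the motor of the return journey to the ciliary base, while dynein 1 moves cargo along microtubules through the rest of the cell, and ciliobrevins inhibit the ATPase of both. Collecting duct cells carry a single primary cilium, and mutations in many cilium genes cause cystic kidneys.

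The recovered reads ranged from 28902562 to 32544817 in Actr3 KO + CB and from 30391369 to 32588460 in dKO. Across genes, log2 values correlated at 0.993 to 0.995 between Actr3 KO + CB libraries, at 0.995 between dKO libraries and at 0.935 to 0.949 between the groups; genes are not independent replicates. Of the genes tested, 74.4% passed an adjusted p under 0.05 in limma, 5036 higher (37.2%) and 5035 lower (37.2%) in Actr3 KO + CB. With a change of at least 2-fold as well, 14.9% did, 1429 higher (10.6%) and 594 lower (4.39%). Over all genes tested the median log2 fold change was -0.01, and the 3 and 3 libraries did not overlap for 76.5% of genes. A call in this comparison is therefore common, and counts of list members are to be read against these shares. Levels below are normalized counts as deposited, with mean ± SD of 3 libraries where 1 value stands for a group. They are not corrected for gene length. Fold changes are log2 of value + 1, Actr3 KO + CB over dKO, which understates the change of low genes, and p-values are from limma with Benjamini-Hochberg adjustment over all genes tested.

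**Figure D1:**
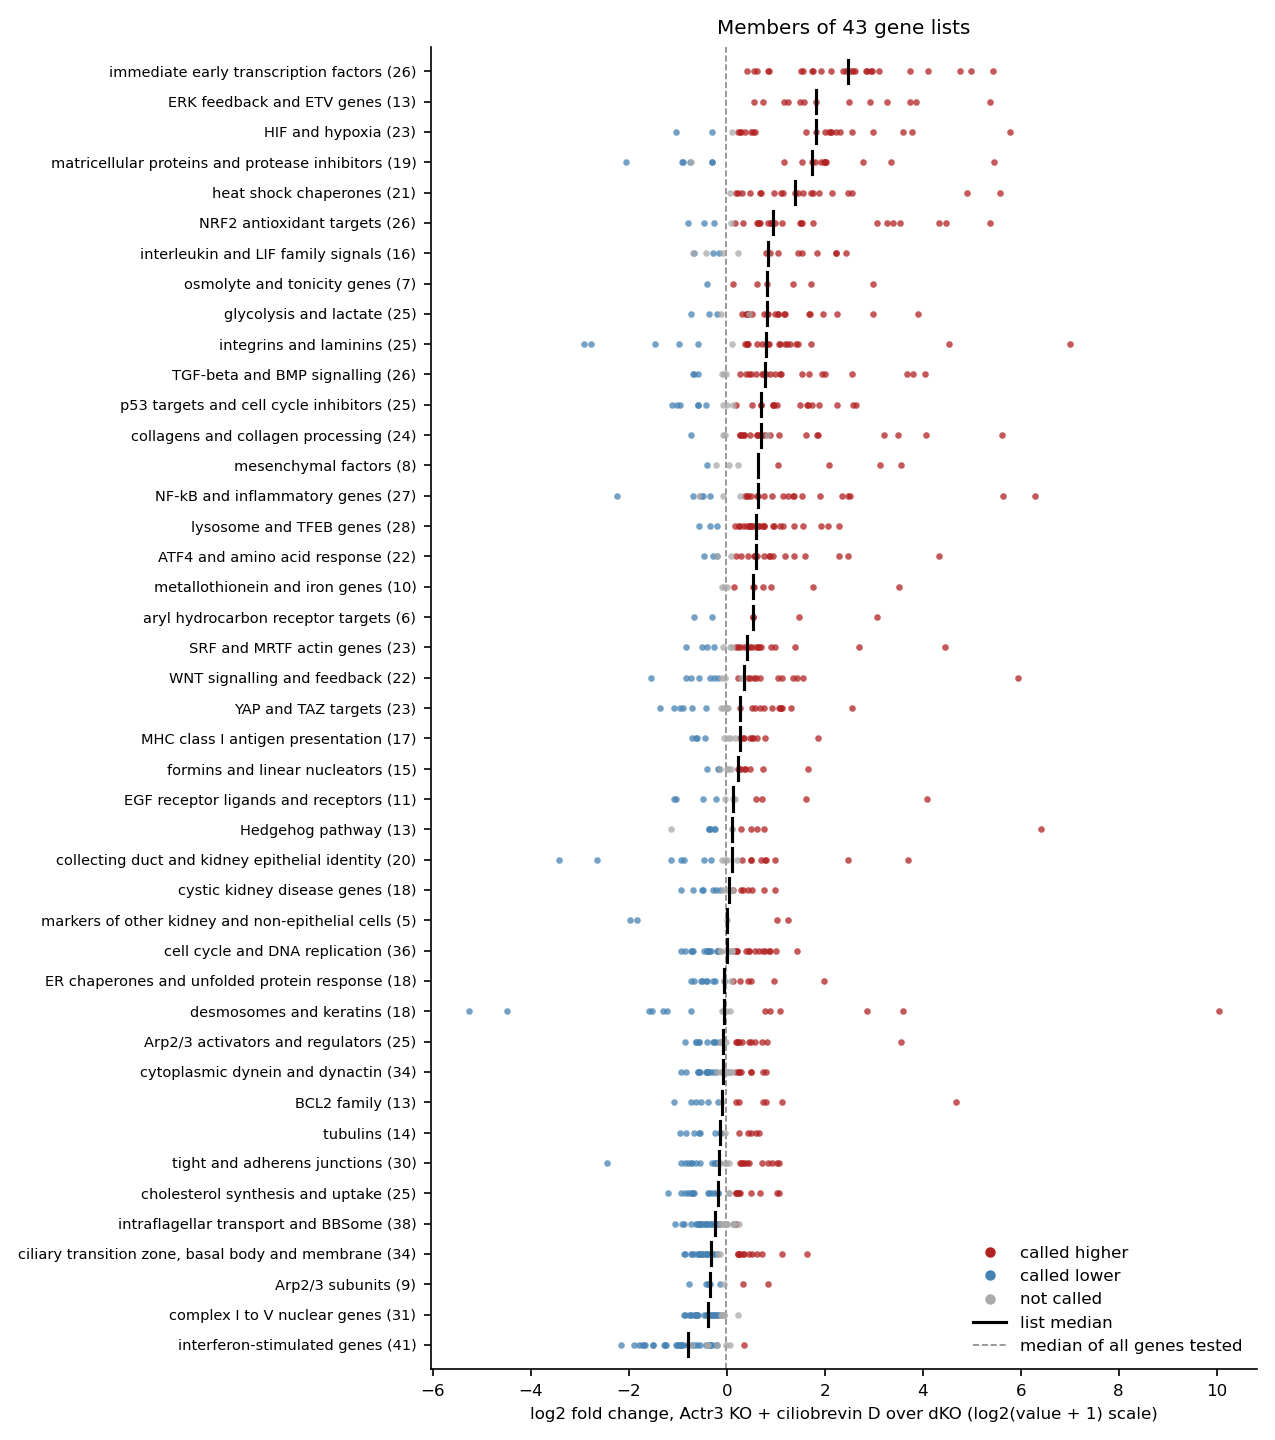
Log2 fold change, Actr3 KO + CB over dKO (horizontal axis), of every tested member (points, coloured by call) of 43 gene lists (vertical axis, with the number tested), with list medians as black bars. Immediate early factors have the highest median (2.48) and interferon-stimulated genes the lowest (-0.80), beside -0.01 for all genes tested (dashed line).

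Calls were unevenly spread over the chromosomes. The median log2 fold change was 0.42 on chromosome 16, 0.39 on chromosome 3 and 0.29 on chromosome 1, and -0.39 on chromosome 10 and -0.22 on chromosome 5. On chromosome 16, 65.5% of 420 genes were higher and 16.0% lower, while on chromosome 10, 19.4% of 646 genes were higher and 60.7% lower. Whether copy number differs between the lines was not tested. Where removing the medians of chromosomes 1 to 19 and X changed a value below by more than 1.5 times, or ended its call, the changed value is given beside it.

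**Figure D2:**
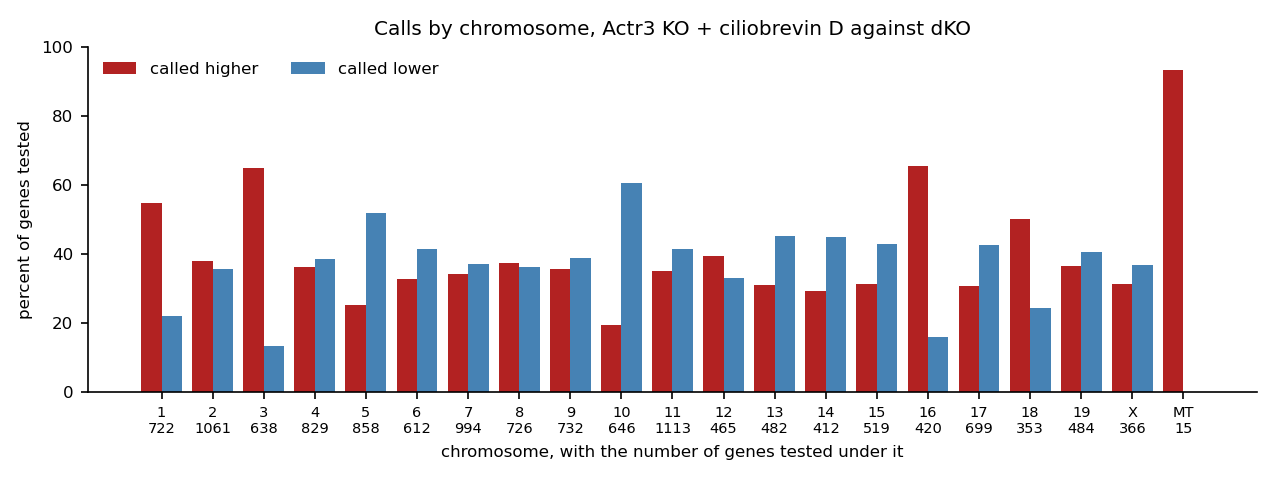
Percent of the genes tested (vertical axis, 0 to 100) called higher or lower in Actr3 KO + CB against dKO on each chromosome (horizontal axis, with the number tested). Higher calls are 64.9% on chromosome 3 and 65.5% on chromosome 16, and lower calls are 60.7% on chromosome 10.

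The edited genes were set beside the labels. Actr3 is edited in both groups, so a low level cannot tell these groups apart. Actr3 (chr1:125392905-125435727, GRCm38) had 1399.5, 1562 and 1759 normalized counts in Actr3 KO + CB, against 870.0, 833 and 911 in dKO. Each of these 6 libraries lies far below the control level of 8336 ± 293, and untreated Actr3 KO stands at 1218 ± 111. The groups do not overlap, with a log2 fold change of 0.85 ± 0.07 (SE, adjusted p = 1.05e-09); with chromosome medians removed it was 0.58. Ift88 (chr14:57424064-57517936, GRCm38) had 443, 438 and 434 normalized counts in Actr3 KO + CB, against 633, 573 and 606 in dKO, beside 617 ± 34.2 in untreated Actr3 KO and 457 ± 14.9 in control. All dKO libraries are thus above all Actr3 KO + CB libraries for the gene that the dKO label names as knocked out, at -0.46 ± 0.07 (SE, adjusted p = 5.34e-06). Reads summed over a whole gene cannot show a short edit, so the Ift88 level says nothing for or against that label. Among the 9 Arp2/3 subunits tested of 10, 2 were higher, 6 lower and 1 not called (median -0.34). Arpc3, a small subunit, had 3727 ± 286 normalized counts in Actr3 KO + CB and 6369 ± 300.1 in dKO (-0.77), and Actr2, which encodes ARP2, the partner of ARP3, had 8056 ± 404 normalized counts in Actr3 KO + CB and 10849 ± 538 in dKO (-0.43, or -0.68 under quantile normalization). Arpc1a, a WD-repeat subunit, was lower at -0.39, but at -0.18 with chromosome medians removed. For Arpc3 the dKO libraries are the highest of the study, since the other groups stood at 2691 ± 248 in untreated Actr3 KO and 5495 ± 253 in control.

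Genes driven by growth factor signals through ERK were higher in Actr3 KO + CB. Of 14 genes of ERK feedback and the ETV factors, 13 passed the filter and all 13 were called higher (median 1.82), where 37.2% of all genes were. Dusp6 encodes a phosphatase that switches off ERK in the cytoplasm and is itself induced by ERK. It had 9306, 10415 and 11109 normalized counts in Actr3 KO + CB, against 1351, 1325 and 1356 in dKO. Every Actr3 KO + CB library was above every dKO library, at 2.93 ± 0.07 (SE, adjusted p = 1.39e-18), and above untreated Actr3 KO at 1221 ± 102, while control, at 9859 ± 985, was near Actr3 KO + CB. Dusp4, a nuclear ERK phosphatase, had 4655, 5260.1 and 5909.7 normalized counts in Actr3 KO + CB, against 547, 561 and 513 in dKO, at 3.28 ± 0.08 (SE, adjusted p = 8.04e-19). Etv4, an ETS factor that acts downstream of FGF and ERK signals, had 1055, 1233 and 1247 normalized counts in Actr3 KO + CB, against 77.1, 96.2 and 87.3 in dKO, at 3.75 ± 0.11 (SE, adjusted p = 1.33e-17). Dusp5, another nuclear phosphatase for ERK, was higher by 2.49. For these 4 genes dKO and untreated Actr3 KO lie close together: Etv4 was at 86.9 ± 9.53 in dKO and 112 ± 16.6 in untreated Actr3 KO, with 972 ± 23.5 in control. The feedback inhibitor Spry4, chosen after its value was seen, had the largest difference of the list, with 868 ± 177 normalized counts in Actr3 KO + CB and 20.2 ± 5.56 in dKO (5.37).

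The immediate early transcription factors, which answer growth factors and stress within minutes and need no new protein, moved the same way. Of 28, 26 passed the filter and 26 were called higher, with a median of 2.48, and 21 of them passed 2-fold, against 10.6% of all genes. Atf3, a stress-induced bZIP repressor, had 25167, 28452 and 31136 normalized counts in Actr3 KO + CB, against 832, 955 and 873 in dKO, at 4.99 ± 0.14 (SE, adjusted p = 9.56e-18). Jun, a subunit of AP-1, had 33969.8, 34036 and 40058 normalized counts in Actr3 KO + CB, against 2567, 2785 and 2754 in dKO, at 3.73 ± 0.11 (SE, adjusted p = 1.04e-17). Fos, its partner, had 1651, 2157 and 2147 normalized counts in Actr3 KO + CB, against 69.7, 81.4 and 63.8 in dKO, at 4.77 ± 0.12 (SE, adjusted p = 1.21e-18). None of these genes, named for small p-values, has overlapping groups, which holds for 76.5% of all genes tested. The lowest Actr3 KO + CB library of Atf3 is above every library of the other 3 groups. Fosb, a relative of Fos, was among the 15 highest genes of all, with 714 ± 93.4 normalized counts in Actr3 KO + CB and 15.5 ± 2.90 in dKO (5.44), beside 57.1 ± 13.8 in untreated Actr3 KO and 487 ± 107 in control. Klf2, a zinc finger factor known from endothelial flow responses, had 2415 ± 53.5 normalized counts in Actr3 KO + CB and 330.2 ± 5.44 in dKO (2.87), and control, at 559 ± 31.8, was far below Actr3 KO + CB.

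The medians of both lists may be set beside those against the untreated line, with the reminder that these 2 comparisons share the untreated Actr3 KO libraries. For ERK feedback the median was 1.92 in Actr3 KO + CB over untreated Actr3 KO and -0.22 in dKO over untreated Actr3 KO. For the immediate early factors the same medians were 2.25 and -0.19. Against control, sharing the control libraries, the immediate early median was 0.84 in Actr3 KO + CB and -1.31 in dKO.

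**Figure D3:**
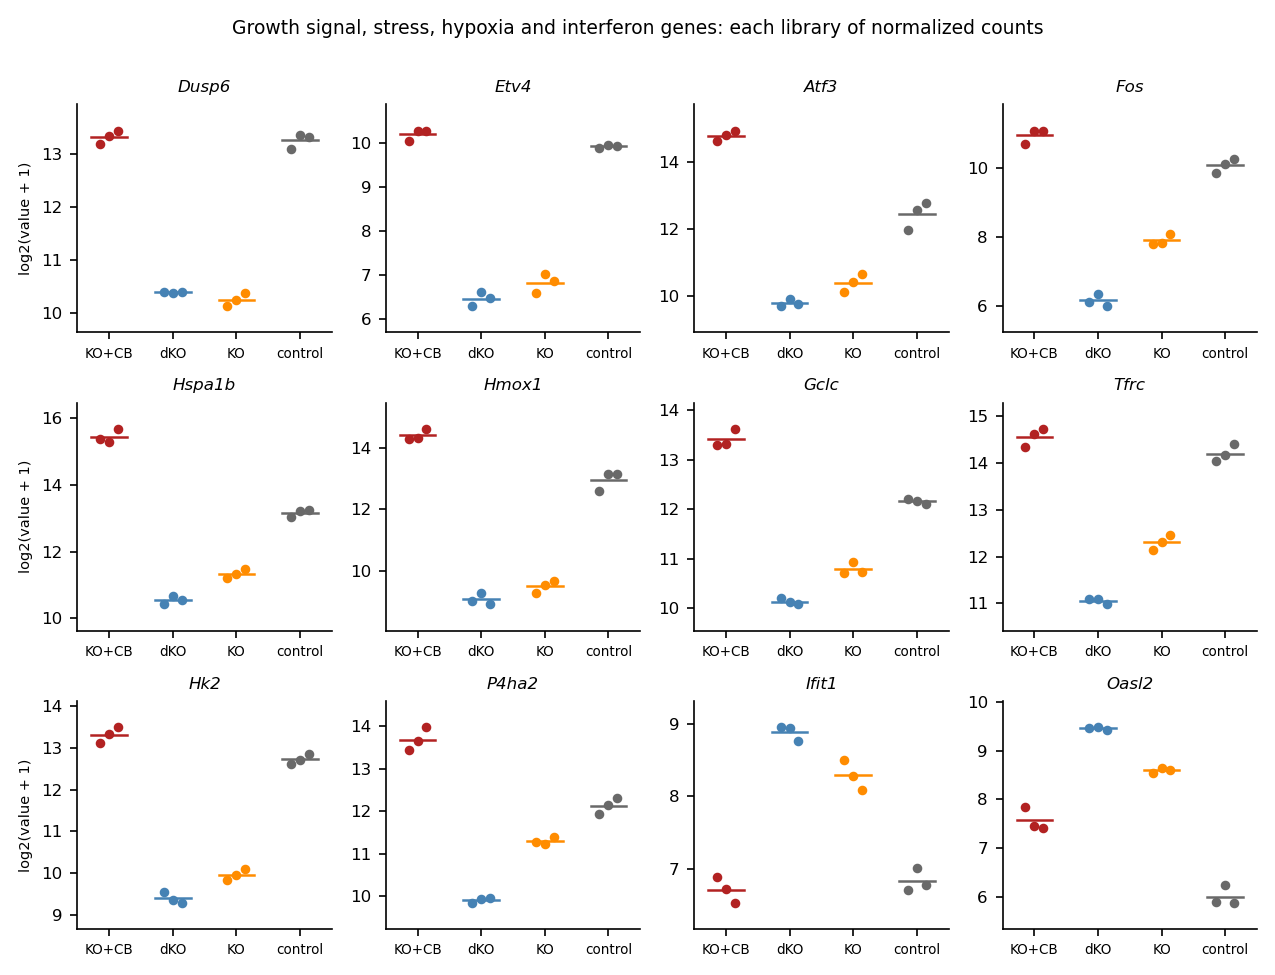
Log2(value + 1) of 12 genes in each library (points; horizontal bars are group means) of Actr3 KO + ciliobrevin D (KO+CB), dKO, untreated Actr3 KO and control, each panel with its own vertical axis. The Actr3 KO + CB libraries lie above all dKO libraries in the first 10 panels and below them for Ifit1 and Oasl2.

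Receptors and ligands upstream of ERK did not move as 1 group. Of 11 EGF receptor ligands and receptors tested of 14, 4 were higher and 4 lower (median 0.13). The ligand Hbegf, a heparin-binding EGF receptor agonist, had 5542, 5902 and 6416 normalized counts in Actr3 KO + CB, against 1857, 1887 and 2080.3 in dKO, at 1.62 ± 0.08 (SE, adjusted p = 4.65e-14). Areg, the ligand amphiregulin, was low everywhere, with 46.8 ± 2.18 normalized counts in Actr3 KO + CB and 2.25 ± 2.30 in dKO (4.09). Both receptors named were lower in Actr3 KO + CB: Egfr had 8919.6 ± 576 normalized counts in Actr3 KO + CB and 12541 ± 361 in dKO (-0.49, or -0.77 under quantile normalization), and Erbb3, the kinase-dead partner receptor for neuregulins, had 4133 ± 211 normalized counts in Actr3 KO + CB and 8495 ± 519 in dKO (-1.04, and -0.63 with chromosome medians removed). Of 16 genes of interleukin and LIF family signalling tested of 21, 9 were higher and 3 lower (median 0.84). Lif, a cytokine that signals through gp130, had 1208, 1337 and 1483 normalized counts in Actr3 KO + CB, against 338, 390.3 and 396 in dKO, at 1.84 ± 0.08 (SE, adjusted p = 2.68e-14). Lifr, its receptor, had 1671, 1538 and 1659 normalized counts in Actr3 KO + CB, against 347, 311 and 375 in dKO, at 2.24 ± 0.08 (SE, adjusted p = 2.42e-16). The receptor followed another order of groups than the ligand, since untreated Actr3 KO, at 1925 ± 135 for Lifr, was as high as Actr3 KO + CB, whereas for Lif it stood at 475 ± 43.4. Osmr, the oncostatin M receptor, was higher by 1.55 and Il6ra, the ligand-binding chain of the interleukin 6 receptor, by 2.23.

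Genes of the heat shock response were higher in Actr3 KO + CB. These chaperones are induced by the factor HSF1 when unfolded proteins accumulate in the cytosol. Of 21 listed, all of which passed the filter, 20 were higher and 0 lower, with a median of 1.40. Hspa1b, an inducible HSP70, had 42517, 40036 and 52128 normalized counts in Actr3 KO + CB, against 1371, 1639.9 and 1498 in dKO, at 4.89 ± 0.09 (SE, adjusted p = 3.44e-21). Its near-identical copy Hspa1a had 1372 ± 247 normalized counts in Actr3 KO + CB and 28.3 ± 9.46 in dKO (5.58), and how reads were shared between the 2 copies is not known. Hsph1, an HSP110 that helps HSP70 release its client, had 24505, 28194 and 37047 normalized counts in Actr3 KO + CB, against 5555, 5248 and 5176 in dKO, at 2.47 ± 0.09 (SE, adjusted p = 1.22e-15). Dnajb1, the HSP40 that hands clients to HSP70, had 9278 ± 1233 normalized counts in Actr3 KO + CB and 2502 ± 21.8 in dKO (1.88). Each of these genes has its 3 highest libraries in Actr3 KO + CB, above control as well as above dKO: control stood at 9187 ± 718 for Hspa1b and 10699.6 ± 308 for Hsph1.

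The targets of NRF2, the factor that answers oxidants and electrophiles, were mostly higher too. Of 26 listed and tested, 22 were higher and 3 lower (median 0.95). Hmox1, heme oxygenase 1, which breaks down heme, had 20427, 20803 and 25369 normalized counts in Actr3 KO + CB, against 517, 614 and 476 in dKO, at 5.37 ± 0.12 (SE, adjusted p = 3.36e-19). Gclc, the catalytic subunit of the enzyme that limits glutathione synthesis, had 10007, 10193 and 12555 normalized counts in Actr3 KO + CB, against 1178, 1117 and 1083 in dKO, at 3.27 ± 0.07 (SE, adjusted p = 2.44e-19). Its regulatory subunit Gclm was higher by 1.53. The cystine importer Slc7a11, a member of the NRF2 and the ATF4 list, had 721, 709 and 756 normalized counts in Actr3 KO + CB, against 43.7, 34.2 and 29.4 in dKO, at 4.33 ± 0.14 (SE, adjusted p = 5.65e-17), and in control, at 716 ± 81.6, it was as high as in Actr3 KO + CB. Of the 22 ATF4 and amino acid response genes, all tested, 17 were higher and 3 lower (median 0.60). Gdf15, a secreted stress cytokine, had 14868 ± 972 normalized counts in Actr3 KO + CB and 2663 ± 192 in dKO (2.48), Cebpb, a bZIP partner of ATF4, was higher by 1.60, and Sesn2, an inhibitor of mTORC1, by 1.38.

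The endoplasmic reticulum arm of protein folding did not share this direction. Of 18 chaperones and unfolded protein response genes, all tested, 6 were higher and 8 lower (median -0.05); under quantile normalization 3 were higher. The cochaperone Dnajb9 had 3978 ± 346 normalized counts in Actr3 KO + CB and 1008 ± 17.6 in dKO (1.98) and the sensor Atf6 was higher by 0.97. The transcription factor Xbp1 had 1268 ± 106 normalized counts in Actr3 KO + CB and 2108 ± 46.9 in dKO (-0.74), and Manf, a secreted folding factor of the reticulum, was lower at -0.52.

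Iron genes and osmolyte genes held some of the larger differences. Of 10 metallothionein and iron genes tested of 12, 7 were higher and 0 lower (median 0.54). Tfrc, the transferrin receptor that brings iron into the cell, had 20746, 25171 and 27056 normalized counts in Actr3 KO + CB, against 2167, 2180.0 and 2018 in dKO, at 3.51 ± 0.09 (SE, adjusted p = 3.37e-18). The ferritin chains, which store iron, were higher as well: Ftl1 had 9326 ± 1233 normalized counts in Actr3 KO + CB and 2736 ± 115 in dKO (1.76) and Fth1 25915 ± 741 normalized counts in Actr3 KO + CB and 13859 ± 422 in dKO (0.90). Slc40a1, the iron exporter ferroportin, was higher by 0.53, and by 0.26 with chromosome medians removed or 0.35 under quantile normalization. Of 7 osmolyte and tonicity genes tested of 8, 6 were higher and 1 lower (median 0.83). Slc5a3, the inositol carrier with which medullary cells balance salt, had 8806, 10151 and 11836 normalized counts in Actr3 KO + CB, against 1392, 1176 and 1307 in dKO, at 2.98 ± 0.08 (SE, adjusted p = 8.09e-18). Hspa4l, an HSP110 relative also in the heat shock list, was higher by 1.73, the amino acid carrier Slc38a2 by 1.34 and Akr1b3, aldose reductase, which makes sorbitol, by 0.83; for Akr1b3 control was far above all other groups at 21432 ± 1244. Among 6 aryl hydrocarbon receptor genes tested of 11, 4 were higher and 2 lower (median 0.53). Cyp1b1, a receptor-induced P450, had 2384 ± 159 normalized counts in Actr3 KO + CB and 852 ± 49.5 in dKO (1.48), and Nqo1, a quinone reductase that NRF2 also drives, had 85.2 ± 4.33 normalized counts in Actr3 KO + CB and 9.47 ± 2.60 in dKO (3.07). Tiparp and Arnt, both on chromosome 3, were higher by 0.53 and 0.54, which became 0.13 and 0.13 with chromosome medians removed; under quantile normalization Arnt was at 0.33.

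Genes of the hypoxia response and of glycolysis were higher in Actr3 KO + CB. The HIF factors are broken down when oxygen lets prolyl hydroxylases mark them, and otherwise induce genes for glucose use, vessel growth and collagen modification. Of 25 HIF and hypoxia genes, 23 passed the filter, 20 were higher and 2 lower (median 1.81). P4ha2, a prolyl hydroxylase that acts on collagen, had 11000.0, 12882 and 16004 normalized counts in Actr3 KO + CB, against 920.2, 969 and 985 in dKO, at 3.78 ± 0.10 (SE, adjusted p = 2.52e-18). Vegfa, the endothelial growth factor, had 10845, 11177 and 13287 normalized counts in Actr3 KO + CB, against 1471, 1447 and 1524 in dKO, at 2.98 ± 0.08 (SE, adjusted p = 3.05e-18). Ero1a, an oxidase of the endoplasmic reticulum, had 9871, 11849.7 and 12786 normalized counts in Actr3 KO + CB, against 2069.9, 1870.2 and 1909.5 in dKO, at 2.55 ± 0.09 (SE, adjusted p = 3.55e-16). For all 3 genes the Actr3 KO + CB libraries are the highest of the study, since control stood at 4482 ± 589.7 for P4ha2, 3999 ± 534 for Vegfa and 4539.7 ± 562 for Ero1a. Egln1, the main hydroxylase that marks HIF and is itself a HIF target, had 10486 ± 889 normalized counts in Actr3 KO + CB and 2240.1 ± 47.6 in dKO (2.22). Adm, adrenomedullin, chosen after its value was seen, had the largest difference of the list (5.77). It had 83.8 ± 4.14 normalized counts in Actr3 KO + CB and 0.618 ± 0.535 in dKO. These come from 213 reads over the 3 Actr3 KO + CB libraries and 2 over the 3 dKO libraries. With so few reads its log2 fold change ran from 4.0 to 7.1 over the alternatives tried.

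Of 25 glycolysis and lactate genes tested of 26, 20 were higher and 3 lower (median 0.82). Hk2, the inducible hexokinase that traps glucose in the cell, had 8823, 10334 and 11481 normalized counts in Actr3 KO + CB, against 745, 657 and 627 in dKO, at 3.91 ± 0.09 (SE, adjusted p = 2.36e-19). Slc2a1, the glucose carrier GLUT1, had 35859, 37684 and 41398 normalized counts in Actr3 KO + CB, against 7461, 8618 and 8124 in dKO, at 2.25 ± 0.08 (SE, adjusted p = 4.27e-16). The lactate carrier Slc16a1 was higher by 1.71 and Eno2, an enolase, by 2.99. Hk2 was at 676 ± 61.1 in dKO, against 1002 ± 96.8 in untreated Actr3 KO and 6775 ± 571 in control. Set side by side over the shared untreated Actr3 KO libraries, the HIF list median was 1.84 in Actr3 KO + CB and -0.03 in dKO, and the glycolysis median was 1.11 in Actr3 KO + CB and 0.35 in dKO.

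The core of the hypoxia response element, ACGTG, was looked for on both strands in the 250 bases before the gene starts listed by RefSeq (GRCm38.p6). Of 22 HIF list genes in that table, 14 (63.6%) held it in at least 1 window, against 18.5% of all 27025 genes. These shares are not matched for base composition or for the number of starts per gene. The list was written from textbook pathways, so its share describes the list and not this comparison. The windows of P4ha2 and Ero1a are shown because both genes were among the 4 of their list with the smallest p. Each also has 1 listed start and holds a match, which was a condition for printing. The windows are printed 5′ to 3′ on the gene's strand, with the motif, or its reverse complement CACGT, in capitals.
P4ha2, chr11:54100674-54100923, plus strand: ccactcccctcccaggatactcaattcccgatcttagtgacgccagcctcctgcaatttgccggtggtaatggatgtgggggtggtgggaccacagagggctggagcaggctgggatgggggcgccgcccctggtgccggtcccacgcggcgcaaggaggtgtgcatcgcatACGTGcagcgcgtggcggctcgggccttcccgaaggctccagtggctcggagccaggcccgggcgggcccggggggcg
Ero1a, chr14:45318573-45318822, minus strand: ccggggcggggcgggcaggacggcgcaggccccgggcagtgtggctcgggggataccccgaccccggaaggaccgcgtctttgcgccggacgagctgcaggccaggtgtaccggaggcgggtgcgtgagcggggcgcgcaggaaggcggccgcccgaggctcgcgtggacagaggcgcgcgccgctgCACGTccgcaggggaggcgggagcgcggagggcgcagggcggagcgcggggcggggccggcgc
Counted from the listed start, the match lies at position -78 in P4ha2 and at -63 in Ero1a. A match describes these letters and is no evidence of binding.

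The nuclear genes for the respiratory chain had the opposite direction to glycolysis. Of 31 complex I to V genes tested of 32, 0 were higher and 25 lower (median -0.38), where 37.2% of all genes were lower. Ndufv2, a subunit of complex I, had 1331, 1391 and 1138 normalized counts in Actr3 KO + CB, against 2182, 2215 and 2166 in dKO, at -0.77 ± 0.06 (SE, adjusted p = 5.09e-10). Uqcrc2, a core protein of complex III, had 2016, 1895 and 1730.4 normalized counts in Actr3 KO + CB, against 3053, 3196 and 3152 in dKO, at -0.74 ± 0.06 (SE, adjusted p = 9.58e-11). A pair of ATP synthase subunits encoded on chromosome 10 were lower, Atp5b at -0.85 and Atp5d at -0.88, but at -0.44 and -0.47 with chromosome medians removed. The differences are small, and untreated Actr3 KO, at 2161 ± 62.5 for Uqcrc2, lies on the side of Actr3 KO + CB. Transcripts of the mitochondrial genome, singled out after their values were seen, went the other way. Of 15 tested, 14 were higher, 0 lower and 1 not called, with a median of 1.17. COX1, the catalytic subunit of complex IV, had 1205748, 1328891 and 1268227 normalized counts in Actr3 KO + CB, against 605643, 621401 and 618588 in dKO, at 1.04 ± 0.18 (SE, adjusted p = 2.78e-05). CYTB, the cytochrome of complex III, had 439689 ± 41191 normalized counts in Actr3 KO + CB and 137891 ± 2158 in dKO, at 1.67 ± 0.14 (SE, adjusted p = 6.90e-10). Under quantile normalization 11 were higher and 1 lower (median 0.69), with CYTB at 0.92 (adjusted p = 2.50e-09 in limma) and COX1, the highest value in each of the 6 libraries, at 0 and not called. These genes took 8.30% to 9.33% of reads in Actr3 KO + CB and 4.88% to 4.97% in dKO, and 7.90% to 9.49% in untreated Actr3 KO and 4.00% to 4.92% in control. The summed mitochondrial share was thus similar in Actr3 KO + CB and untreated Actr3 KO, and in dKO it was near control. Single mitochondrial transcripts did not all keep this order, and what sets the share was not tested.

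Interferon-stimulated genes were lower in Actr3 KO + CB than in dKO. These genes hold back viruses and are switched on when interferons bind their receptors on the cell surface. Of 42 listed, 41 passed the filter, 34 were lower and 1 higher (median -0.80), where 37.2% of all genes were lower. Ifit1, which binds foreign RNA caps, had 118, 105 and 92.2 normalized counts in Actr3 KO + CB, against 493, 490.2 and 431 in dKO, at -2.16 ± 0.12 (SE, adjusted p = 1.01e-12). Oasl2, an OAS-like protein, had 229.8, 174 and 169.9 normalized counts in Actr3 KO + CB, against 711, 713 and 692 in dKO, at -1.89 ± 0.12 (SE, adjusted p = 4.66e-12). Ifit3, a partner of IFIT1, had 3253, 2808 and 2405 normalized counts in Actr3 KO + CB, against 9498, 9050.3 and 9274 in dKO, at -1.73 ± 0.08 (SE, adjusted p = 2.20e-14). All dKO libraries are above all Actr3 KO + CB libraries for each of them, and 76.5% of all genes have no overlap in either direction. Control differs from gene to gene. It was as low as Actr3 KO + CB for Ifit1, at 114 ± 12.7, and lowest of all for Oasl2, at 63.5 ± 9.70. For Ifit3 it was near dKO, at 8056 ± 689.6. Ifit3b, a close copy of Ifit3, was lower at -1.79, and how reads were shared between the copies is not known. Over the shared untreated Actr3 KO libraries the list median was -0.77 in Actr3 KO + CB and 0.03 in dKO. Against control, sharing the control libraries, it was 0.65 in Actr3 KO + CB and 1.36 in dKO, so both groups were above control by this median.

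The core of the interferon-stimulated response element, written as GAAA, any 2 bases and GAAA again, was searched on both strands of the same 250 base windows. Of 31 listed genes in the RefSeq table, 14 (45.2%) held it, against 3.46% of all 27025 genes, again without matching for base composition or starts per gene. This share too describes a textbook list and not this comparison. The windows of Ifit1 and Ifit3 are shown because both genes were among the 4 of their list with the smallest p. Each also has 1 listed start and holds a match, again a condition for printing. Capitals mark the motif, which reads as its reverse complement on this strand.
Ifit1, chr19:34640639-34640888, plus strand: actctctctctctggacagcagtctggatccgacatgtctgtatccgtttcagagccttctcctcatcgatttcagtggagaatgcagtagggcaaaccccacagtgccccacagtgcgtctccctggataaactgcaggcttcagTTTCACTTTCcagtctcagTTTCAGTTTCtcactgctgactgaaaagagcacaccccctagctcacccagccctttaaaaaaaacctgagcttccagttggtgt
Ifit3, chr19:34583279-34583528, plus strand: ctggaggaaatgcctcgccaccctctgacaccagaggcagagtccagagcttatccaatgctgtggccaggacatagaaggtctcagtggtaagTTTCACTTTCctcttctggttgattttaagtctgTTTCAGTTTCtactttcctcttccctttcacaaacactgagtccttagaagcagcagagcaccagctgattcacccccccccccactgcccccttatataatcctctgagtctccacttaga
Each window holds 2 matches, at positions -104 and -85 from the listed start in Ifit1 and at -156 and -122 in Ifit3.

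Antigen presentation and NF-kB genes did not follow the interferon genes. Of 17 MHC class I presentation genes, all tested, 9 were higher and 4 lower (median 0.27). Nlrc5, the transactivator of class I genes, had 394, 322 and 329.9 normalized counts in Actr3 KO + CB, against 97.6, 78.6 and 109.9 in dKO, at 1.87 ± 0.17 (SE, adjusted p = 2.52e-09). The peptide transporter Tap2 was higher by 0.77, while Psme1, a proteasome activator, and the chaperone Calr were lower at -0.70 and -0.63, with Calr at -0.99 under quantile normalization. Of 27 NF-kB and inflammatory genes tested of 31, 19 were higher and 5 lower (median 0.64). Ptgs2, the inducible cyclooxygenase that makes prostaglandins, had 3262, 4655 and 5056 normalized counts in Actr3 KO + CB, against 97.6, 78.6 and 76.5 in dKO, at 5.65 ± 0.14 (SE, adjusted p = 2.00e-18). Cxcl2, a chemokine for neutrophils, had 403, 614 and 845 normalized counts in Actr3 KO + CB, against 5.58, 7.40 and 6.87 in dKO, at 6.29 ± 0.26 (SE, adjusted p = 5.49e-15). Both were also high in control, at 4622 ± 467 for Ptgs2 and 473 ± 83.7 for Cxcl2, and low in untreated Actr3 KO, at 129 ± 29.9 and 17.1 ± 8.07. Cxcl1, a close relative of Cxcl2, was higher by 2.47, and Nfkbiz, an inducible nuclear coregulator, by 1.54.

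Genes of the matrix and of cell adhesion were higher in Actr3 KO + CB than in dKO. Of 31 genes for collagens and their processing, 24 passed the filter, 20 were higher and 1 lower (median 0.69). Col4a1, a chain of basement membrane collagen, had 10160.0, 9229 and 9175 normalized counts in Actr3 KO + CB, against 2558, 2716 and 2725 in dKO, at 1.84 ± 0.06 (SE, adjusted p = 3.67e-16), and 17449.5 ± 1810.4 in untreated Actr3 KO. Col12a1, a fibril-associated collagen, had 227 ± 9.52 normalized counts in Actr3 KO + CB and 12.6 ± 1.87 in dKO (4.07), and Col5a1, a fibril-forming chain, 185 ± 24.1 normalized counts in Actr3 KO + CB and 2.85 ± 1.04 in dKO (5.62). Plod2, a lysyl hydroxylase for collagen crosslinks, had 18811, 23248 and 27774 normalized counts in Actr3 KO + CB, against 2049, 2039 and 2026 in dKO, at 3.49 ± 0.11 (SE, adjusted p = 4.91e-17). Plod2 kept another order than the collagens, with untreated Actr3 KO at 3801 ± 303. Of 25 integrins and laminins tested of 26, 19 were higher and 5 lower (median 0.81). Itgb3, a vitronectin receptor subunit, had 359, 409.8 and 442 normalized counts in Actr3 KO + CB, against 19.5, 16.6 and 13.7 in dKO, at 4.53 ± 0.13 (SE, adjusted p = 1.72e-17). Itga5, the fibronectin receptor subunit, was higher by 1.45, and Nid2, a basement membrane linker, had 2705 ± 125 normalized counts in Actr3 KO + CB and 822 ± 54.3 in dKO (1.72).

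Of 30 matricellular proteins and protease inhibitors, 19 passed the filter, 12 were higher and 6 lower (median 1.74). Plat, tissue plasminogen activator, a protease kept in this list, had 43688, 55156 and 64572 normalized counts in Actr3 KO + CB, against 5055, 5571 and 5261 in dKO, at 3.35 ± 0.11 (SE, adjusted p = 6.15e-17). Tnc, tenascin C, had 4365, 4759 and 4950.1 normalized counts in Actr3 KO + CB, against 659, 679 and 716 in dKO, at 2.77 ± 0.07 (SE, adjusted p = 2.31e-18). Spp1, osteopontin, had 17695 ± 998 normalized counts in Actr3 KO + CB and 4362 ± 228 in dKO (2.02). The 3 genes differ in where the other groups stand: Plat was high in control, at 56130.0 ± 6504, and low in untreated Actr3 KO, at 9032 ± 896, while Tnc was highest in untreated Actr3 KO, at 6618 ± 771. Timp3, an inhibitor of matrix proteases, had 249, 358 and 323 normalized counts in Actr3 KO + CB, against 7.44, 3.70 and 7.85 in dKO, at 5.45 ± 0.17 (SE, adjusted p = 7.78e-17), beside 413 ± 6.67 in untreated Actr3 KO and 1153 ± 36.6 in control. For the collagens, the median over the shared untreated Actr3 KO libraries was -0.19 in Actr3 KO + CB and -1.02 in dKO. For the integrins and laminins it was -0.32 in Actr3 KO + CB and -0.88 in dKO.

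**Figure D4:**
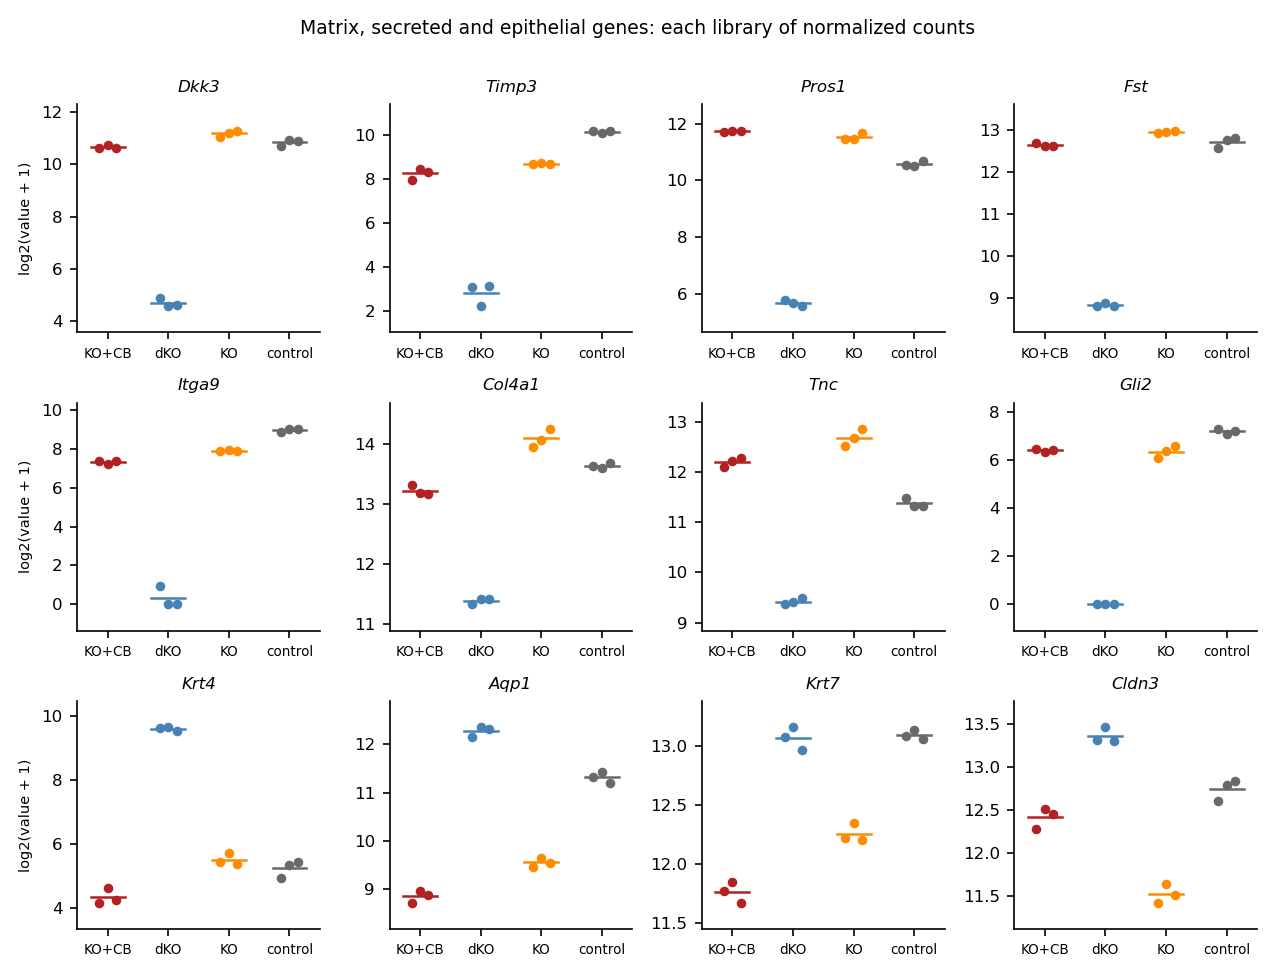
Log2(value + 1) of 12 matrix, secreted and epithelial genes in each library (points; bars are group means) of Actr3 KO + ciliobrevin D (KO+CB), dKO, untreated Actr3 KO and control, each panel with its own vertical axis. In the first 8 panels the Actr3 KO + CB libraries lie above all dKO libraries, and for Krt4, Aqp1, Krt7 and Cldn3 below them.

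Genes of TGF-beta and BMP signalling were mostly higher in Actr3 KO + CB. Of 26 TGF-beta and BMP genes tested of 29, 20 were higher and 3 lower (median 0.77), with 6 lower under quantile normalization. Fst, follistatin, which binds activin, had 6619, 6346 and 6286 normalized counts in Actr3 KO + CB, against 449, 471 and 448 in dKO, at 3.81 ± 0.06 (SE, adjusted p = 7.32e-23). In untreated Actr3 KO and control Fst was at 7965 ± 162 and 6778 ± 551, so dKO stands apart from the other 3 groups. The ligand Tgfb2 had 237 ± 15.6 normalized counts in Actr3 KO + CB and 39.8 ± 6.44 in dKO (2.55), Ltbp1, which stores latent TGF-beta in the matrix, was higher by 2.00, and Skil, a SMAD corepressor, by 1.95. Of 22 WNT genes tested of 31, 12 were higher and 7 lower (median 0.36). Dkk3, a secreted Dickkopf protein, had 1552, 1680.1 and 1565 normalized counts in Actr3 KO + CB, against 28.8, 23.1 and 23.6 in dKO, at 5.94 ± 0.09 (SE, adjusted p = 6.19e-23), beside 2313 ± 181 in untreated Actr3 KO and 1818 ± 138 in control. The ligands Wnt4, which acts in kidney tubule formation, and Wnt9a were lower: Wnt4 had 506 ± 26.0 normalized counts in Actr3 KO + CB and 1483 ± 125 in dKO (-1.55), and Wnt9a was at -0.84. Tcf7, a partner of beta-catenin, was higher by 1.35. Of 23 YAP and TAZ genes tested of 24, 12 were higher and 6 lower (median 0.27), with 10 lower under quantile normalization. Dlc1, a GTPase-activating protein, had 3396 ± 197 normalized counts in Actr3 KO + CB and 1370.5 ± 30.6 in dKO (1.31); F3, tissue factor, was higher by 1.12, and Wwtr1, which encodes TAZ, by 0.93, the last 2 at 0.71 and 0.52 with chromosome medians removed.

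Few mesenchymal factors were expressed, and they did not all move the same way. Of 13, 8 passed the filter, 4 were higher, 1 lower and 3 not called (median 0.64). The share called higher was 50%, beside 37.2% of all genes. The genes named here, chosen by smallest adjusted p, are the ones called higher. Vim, the intermediate filament vimentin, had 667, 1007 and 879 normalized counts in Actr3 KO + CB, against 76.2, 76.8 and 58.9 in dKO, at 3.56 ± 0.15 (SE, adjusted p = 4.52e-15). Zeb2, a repressor of E-cadherin, had 639, 737 and 792 normalized counts in Actr3 KO + CB, against 94.8, 72.1 and 78.5 in dKO, at 3.13 ± 0.12 (SE, adjusted p = 8.11e-16). Its relative Zeb1 was higher by 2.09 and the bHLH factor Twist2 by 1.05. For Vim the Actr3 KO + CB libraries lie near control, at 702 ± 114, and dKO is the lowest group, with untreated Actr3 KO at 318 ± 49.3. Of 23 actin genes driven by SRF and MRTF tested of 27, 16 were higher and 4 lower (median 0.41). Flna, an actin crosslinker, had 42790.2 ± 806 normalized counts in Actr3 KO + CB and 21607 ± 858 in dKO (0.99), Zyx, a focal adhesion protein, was higher by 0.65 (both less under quantile normalization, at 0.65 and 0.43), and Pdlim5, a Z-disc and stress fibre protein, by 0.90, or 0.50 with chromosome medians removed. Acta2, smooth muscle actin, had 87 reads over the 3 Actr3 KO + CB libraries and 2 over the 3 dKO libraries, a scaled ratio of 54.4 (exact interval 14.6 to 456).

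Regulators of Arp2/3 and the linear nucleators were divided. Of 25 activators and regulators tested of 29, 11 were higher and 10 lower (median -0.07), with 7 higher under quantile normalization. Abi2, of the WAVE complex that activates Arp2/3 at the cell edge, had 2490.1 ± 78.8 normalized counts in Actr3 KO + CB and 1416 ± 108 in dKO (0.82), and Wipf2, a partner of WASP proteins, was higher by 0.72. The WASH subunits Washc1 and Washc3, which activate Arp2/3 on endosomes, were lower at -0.62 and -0.86, with Washc3 at -0.45 after chromosome medians were removed. Of 15 formins and other linear nucleators tested of 18, 8 were higher and 3 lower (median 0.23), with 5 higher under quantile normalization. Spire1, which nucleates straight filaments, had 702, 716 and 802 normalized counts in Actr3 KO + CB, against 251, 224 and 222 in dKO, at 1.67 ± 0.09 (SE, adjusted p = 2.61e-13). The formin Daam1 was higher by 0.75, Diaph1 by 0.38 (adjusted p = 4.51e-06; 0.18 with chromosome medians removed and 0.14 under quantile normalization), and Fhod1 was lower at -0.41.

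Genes for the transport system of the cilium were lower in Actr3 KO + CB, by small amounts. Of 38 intraflagellar transport and BBSome genes, all of which passed the filter, 25 were lower, 2 higher and 11 not called (median -0.24); with chromosome medians removed 28 were lower and 0 higher. Ift22, an IFT-B small GTPase, had 540.3, 593 and 486 normalized counts in Actr3 KO + CB, against 1074, 1180.2 and 1124 in dKO, at -1.06 ± 0.09 (SE, adjusted p = 5.38e-10). Ift46, an IFT-B core protein, had 726, 751 and 624 normalized counts in Actr3 KO + CB, against 1285, 1303 and 1263 in dKO, at -0.88 ± 0.07 (SE, adjusted p = 2.50e-10). Wdr19, of the IFT-A complex for the return journey, had 958, 1016 and 855 normalized counts in Actr3 KO + CB, against 1848, 1694 and 1818 in dKO, at -0.92 ± 0.07 (SE, adjusted p = 9.57e-11). The groups of none of these genes, named for small p-values, overlap, which holds for 76.5% of all genes tested. The levels of the other groups vary, with Ift22 at 587 ± 69.6 in untreated Actr3 KO and 972 ± 83.8 in control. Ift140, another IFT-A protein, was lower at -0.54. Over the shared untreated Actr3 KO libraries, the list median was -0.23 in Actr3 KO + CB and 0.03 in dKO.

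Genes of the transition zone, basal body and ciliary membrane went both ways. Of 34 tested of 35, 20 were lower and 12 higher (median -0.32), and the genes named below are all among the higher. Iqcb1, which is also called NPHP5, had 1756, 2019.6 and 2478 normalized counts in Actr3 KO + CB, against 677, 653 and 649 in dKO, at 1.64 ± 0.09 (SE, adjusted p = 7.55e-13). Arl13b, which encodes a GTPase held in the ciliary membrane, had 1357 ± 48.9 normalized counts in Actr3 KO + CB and 619 ± 34.2 in dKO (1.13, and 0.70 with chromosome medians removed), and Ttbk2, the kinase that starts cilium assembly, was higher by 0.71. Iqcb1 and Arl13b both lie on chromosome 16, which had the highest chromosome median outside the mitochondrial genome.

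**Figure D5:**
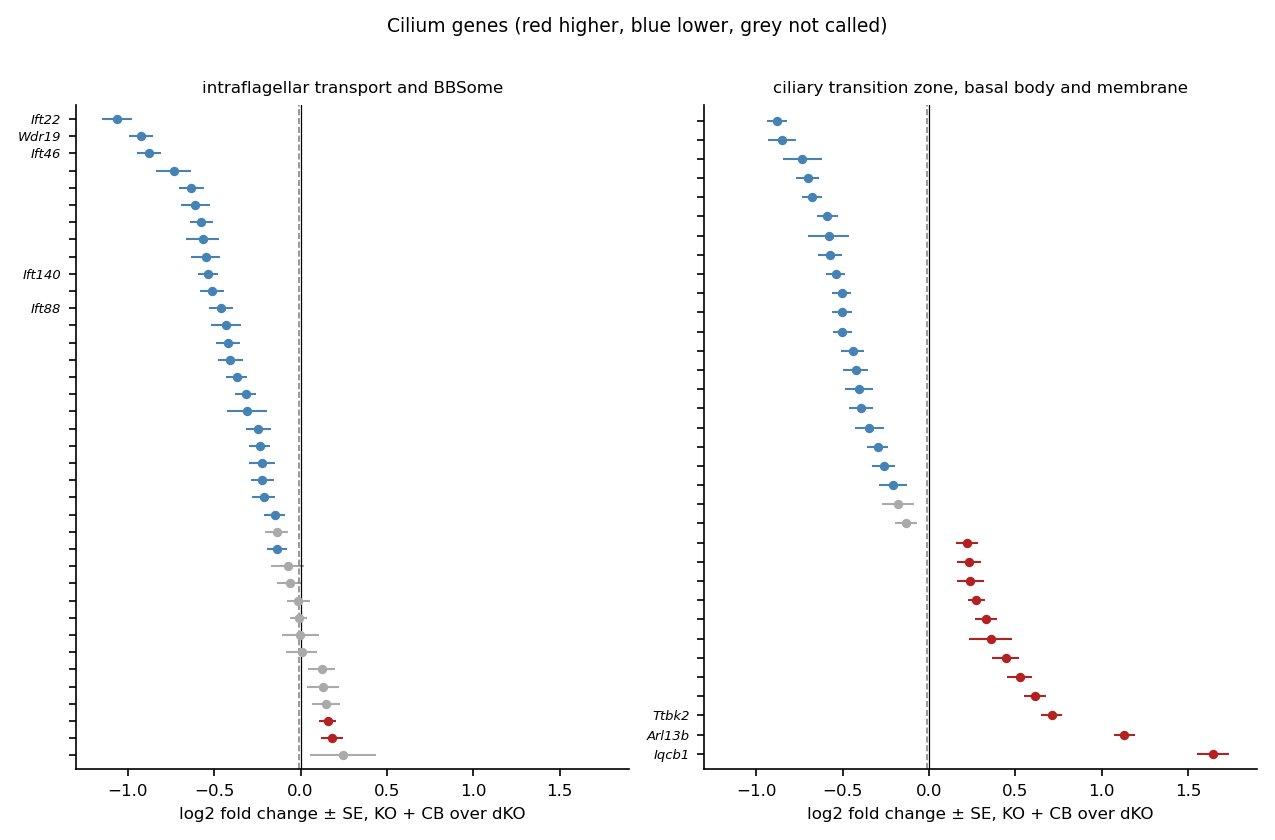
Log2 fold change ± SE, Actr3 KO + CB over dKO (horizontal axis), of each tested gene (vertical axis, labelled where the text names it) for intraflagellar transport and BBSome (left) and for transition zone, basal body and membrane (right), coloured by call, with all-gene median dashed. On the left 25 of 38 genes are lower and 2 higher, and on the right 20 of 34 are lower and 12 higher.

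Genes of cytoplasmic dynein, the motor that the inhibitor acts on, and of its partner dynactin showed no single direction. Of 34 cytoplasmic dynein and dynactin genes tested of 36, 8 were higher, 14 lower and 12 not called (median -0.07). Dctn2, the dynactin subunit dynamitin, had 4137, 3968 and 3879 normalized counts in Actr3 KO + CB, against 7403, 8054 and 7538 in dKO, at -0.94 ± 0.05 (SE, adjusted p = 1.60e-12), or -0.54 with chromosome medians removed. Dync2li1, a light intermediate chain of the ciliary dynein 2, had 559 ± 33.8 normalized counts in Actr3 KO + CB and 996 ± 17.3 in dKO (-0.83). Dctn3, a small dynactin subunit, was lower at -0.58, and Ndel1, which with LIS1 activates dynein, was higher by 0.81. Of 14 tubulins tested of 15, 5 were higher and 8 lower (median -0.14). The count of higher tubulins was 3 under TMM rescaling, without Actr3 KO + CB replicate 1 and without dKO replicate 3. Tubb3 had 306 ± 60.4 normalized counts in Actr3 KO + CB and 587 ± 23.3 in dKO (-0.96), Tube1, epsilon tubulin of the centriole, was lower at -0.84 and Tubg1, the gamma tubulin that starts microtubules, at -0.67, while Tuba4a was higher by 0.66; with chromosome medians removed Tube1 was at -0.43 and Tuba4a at 0.38, and under quantile normalization Tuba4a was at 0.43.

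Hedgehog signalling runs through the cilium, where GLI factors are processed. Of 19 genes, 13 passed the filter, 5 were higher and 5 lower (median 0.10), with 8 higher when no filter was used. Gli2, the main activator of the pathway, had 87.8, 80.2 and 85.5 normalized counts in Actr3 KO + CB, against 0 in each dKO library, and 81.4 ± 13.6 in untreated Actr3 KO and 147 ± 9.59 in control. With 215 reads over the 3 Actr3 KO + CB libraries and 0 over the 3 dKO libraries, its level was at least 89.4-fold higher in Actr3 KO + CB, set against a floor of 3 reads over the dKO group. Gli3, the main repressor, had 3458 ± 178 normalized counts in Actr3 KO + CB and 2032 ± 102 in dKO (0.77). The ciliary kinesin Kif7 was higher by 0.62, and Gpr161, a receptor that restrains the pathway, by 0.49, or 0.21 with chromosome medians removed. Of 18 cystic kidney disease genes, all tested, 7 were higher and 7 lower (median 0.05). Tsc1, an inhibitor of mTORC1, had 4844 ± 474 normalized counts in Actr3 KO + CB and 2451 ± 108 in dKO (0.98) and Flcn, the folliculin of the lysosome, was higher by 0.76. Bicc1, an RNA-binding protein, had 13592 ± 1332 normalized counts in Actr3 KO + CB and 21819 ± 818 in dKO (-0.69, and -0.28 with chromosome medians removed).

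Kidney epithelial markers were expressed in both groups. The epithelial marker Cdh16, a kidney cadherin, had 24985 ± 428 normalized counts in Actr3 KO + CB and 17788 ± 1325 in dKO (0.49, or 0.22 under quantile normalization). The nephric factor Pax8 had 7191 ± 252 normalized counts in Actr3 KO + CB and 5807 ± 74.3 in dKO (0.31), and was not called under quantile normalization (adjusted p = 0.0760). Pax2, of the same family, had 2937 ± 86.5 normalized counts in Actr3 KO + CB and 3025 ± 15.5 in dKO and was not called; it was called lower under quantile normalization, at -0.20. Aqp2, the vasopressin-regulated water channel of the mature principal cell, was at 0.401 ± 0.695 in Actr3 KO + CB and 0.62 ± 1.07 in dKO, below the filter. Other principal cell markers are not given here. Of 32 collecting duct and kidney identity genes, 20 passed the filter, 9 were higher and 7 lower (median 0.10). Aqp1, a water channel of proximal tubule and thin limb, had 420.0, 494 and 469.8 normalized counts in Actr3 KO + CB, against 4547, 5225 and 5079 in dKO, at -3.42 ± 0.07 (SE, adjusted p = 1.12e-19). Sgk1, a kinase that aldosterone and tonicity induce, had 1238, 1646 and 1794 normalized counts in Actr3 KO + CB, against 126, 118 and 111 in dKO, at 3.69 ± 0.11 (SE, adjusted p = 1.94e-17). Gata2, a zinc finger transcription factor, had 177 ± 24.2 normalized counts in Actr3 KO + CB and 30.9 ± 3.25 in dKO (2.48). Of 20 markers of other kidney and non-epithelial cells, 5 passed the filter, of which 2 were higher and 2 lower (median 0.00), with 9 higher when no filter was used. Their summed level was 12301.5 to 12810.1 in Actr3 KO + CB and 5609.6 to 6806.5 in dKO, nearly all of it Lrp2, the proximal tubule receptor megalin, with 11969 ± 279.9 normalized counts in Actr3 KO + CB and 5905 ± 615 in dKO. Without Lrp2 the sums were 486 to 525 in Actr3 KO + CB and 303 to 335 in dKO. Cd68 had 332 ± 23.5 normalized counts in Actr3 KO + CB and 139 ± 11.7 in dKO (1.24). Pdgfra and Slc26a4 were lower at -1.98 and -1.84 (adjusted p = 0.0025 and 0.0023 in limma), the second at -2.76 under quantile normalization. Both are low genes that the mean filter of 50 left out. Foxi1 and Slc34a1 had no read in the 6 libraries, and Ptprc, of leukocytes, was at 13.0 ± 3.22 in Actr3 KO + CB and 4.71 ± 0.814 in dKO; the part of other cells in these results was not tested.

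Junction and keratin genes were divided. Of 30 tight and adherens junction genes tested of 32, 11 were higher and 14 lower (median -0.15). Cldn3, a sealing claudin, had 4974, 5814 and 5601 normalized counts in Actr3 KO + CB, against 10169, 11233 and 10094 in dKO, at -0.94 ± 0.07 (SE, adjusted p = 9.63e-11). F11r, the junction adhesion molecule JAM-A, had 7662 ± 1010.1 normalized counts in Actr3 KO + CB and 3639 ± 90.5 in dKO (1.07), Mpp5, the polarity scaffold PALS1, was higher by 0.85, and Tjp3, the scaffold ZO-3, was lower at -0.78, or -0.38 with chromosome medians removed. Of 32 desmosome and keratin genes, 18 passed the filter, 6 were higher and 7 lower (median -0.06), with 11 lower under quantile normalization. Krt4, a keratin of stratified epithelium, had the most negative log2 fold change of the genes named, with 16.8, 23.5 and 17.8 normalized counts in Actr3 KO + CB, against 787, 801 and 744 in dKO, at -5.27 ± 0.17 (SE, adjusted p = 1.13e-16). Krt7, a keratin of simple ducts, had 3499, 3698 and 3269.7 normalized counts in Actr3 KO + CB, against 8587, 9109 and 7984 in dKO, at -1.29 ± 0.06 (SE, adjusted p = 2.86e-14). Pkp3, a desmosomal plakophilin, was lower at -1.58. For Krt7 control, at 8712 ± 239.6, was level with dKO, while Krt4 was low in both untreated Actr3 KO and control, at 44.6 ± 6.29 and 37.0 ± 6.72.

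Of the 15 highest genes, several were near silent in dKO and expressed in every other group. Dsc2 (chromosome 18), a desmosomal cadherin, had 1173, 1048 and 981 normalized counts in Actr3 KO + CB, against 0 in each dKO library, and 2034 ± 190.4 in untreated Actr3 KO and 1442 ± 40.3 in control. With 2707 reads over the 3 Actr3 KO + CB libraries and 0 over the 3 dKO libraries, it was at least 1129-fold higher in Actr3 KO + CB. Bhlhb9 (chromosome X) had 723, 646 and 586 normalized counts in Actr3 KO + CB, again against 0 in each dKO library, which is at least 689.5-fold higher. In all, 18 tested genes had no read in dKO while 1 had none in Actr3 KO + CB. Itga9, the integrin alpha 9 chain, had 403 reads over the 3 Actr3 KO + CB libraries and 1 over the 3 dKO libraries, a scaled ratio of 504 (exact interval 89.9 to 19942), and Galnt14, which starts O-linked glycans, had 402 reads over the 3 Actr3 KO + CB libraries and 2 over the 3 dKO libraries, a ratio of 251 (exact interval 69.1 to 2081); these 95% intervals cover counting error only. Both were expressed without the inhibitor too, Itga9 at 238 ± 2.95 in untreated Actr3 KO and 499 ± 24.3 in control and Galnt14 at 384 ± 37.7 in untreated Actr3 KO and 407 ± 15.5 in control. Pros1, the anticoagulant protein S, had 3355, 3444 and 3385 normalized counts in Actr3 KO + CB, against 53.9, 50.9 and 47.1 in dKO, at 6.04 ± 0.07 (SE, adjusted p = 2.50e-24), beside 2940.1 ± 257 in untreated Actr3 KO and 1535 ± 106 in control. Clip3, a microtubule-associated protein of the CLIP family, had 279.9 ± 16.7 normalized counts in Actr3 KO + CB and 2.49 ± 2.67 in dKO (6.58), and Elfn1, a synaptic membrane protein, had 151 ± 6.44 normalized counts in Actr3 KO + CB and 1.87 ± 0.904 in dKO (5.77). The 15 highest genes thus hold some that differ between all groups and dKO, such as Pros1 and Dkk3, and others that are low in both dKO and untreated Actr3 KO, such as Hmox1, at 719 ± 99.8, and Ptgs2.

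The 15 genes with the most negative log2 fold change, which are the ones higher in dKO, included genes of varied function. Upk3b, a uroplakin of the bladder lining, had 155, 164 and 110.0 normalized counts in Actr3 KO + CB, against 1048, 1164 and 1039 in dKO, at -2.93 ± 0.12 (SE, adjusted p = 2.90e-15). Its relative Upk3bl had 20.5 ± 3.62 normalized counts in Actr3 KO + CB and 379 ± 11.6 in dKO (-4.15), and how reads were shared between the 2 is not known. Psca, a surface protein of bladder and prostate epithelium, had 8.21 ± 1.55 normalized counts in Actr3 KO + CB and 205 ± 26.9 in dKO (-4.49), and Gabrp, a GABA receptor subunit found in epithelia, 14.2 ± 12.8 normalized counts in Actr3 KO + CB and 198 ± 14.8 in dKO (-4.04). Dhrs3, a retinal reductase induced by retinoic acid, had 161, 61.7 and 63.3 normalized counts in Actr3 KO + CB, against 2490.1, 2569 and 2711 in dKO, at -4.90 ± 0.21 (SE, adjusted p = 7.54e-15); untreated Actr3 KO, at 2021 ± 172, was near dKO. By contrast Sh3gl2, an endophilin, had 8.78 ± 4.24 normalized counts in Actr3 KO + CB and 222 ± 25.2 in dKO (-4.59) and was as low in untreated Actr3 KO, at 8.40 ± 4.32, as with the inhibitor. Osr2, a kidney zinc finger factor, had 37.0 ± 3.42 normalized counts in Actr3 KO + CB and 434 ± 28.5 in dKO (-3.52), Inmt, an indole methyltransferase, 10.9 ± 3.10 normalized counts in Actr3 KO + CB and 353 ± 54.1 in dKO (-4.91), and Cdk14, a cyclin-dependent kinase of WNT signalling, 16.0 ± 6.86 normalized counts in Actr3 KO + CB and 247 ± 15.9 in dKO (-3.95). The remaining 4 of the 15, Gbp8, Cpne5, Sytl4 and Il5ra, were lower at -3.19, -3.21, -3.41 and -3.28.

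Growth control and turnover genes complete the lists. Of 25 p53 targets and cell cycle inhibitors tested of 26, 16 were higher and 6 lower (median 0.71). Btg2, an antiproliferative p53 target, had 6652, 8181 and 8746 normalized counts in Actr3 KO + CB, against 1257, 1271 and 1232 in dKO, at 2.64 ± 0.10 (SE, adjusted p = 7.97e-16). Plk3, a stress-induced polo kinase, was higher by 2.58, Pmaip1, the BH3 protein NOXA, by 1.65, and Zmat3 by 1.49. Of 36 cell cycle and DNA replication genes tested of 37, 14 were higher and 15 lower (median 0.00). Ccne1, the cyclin of the start of S phase, had 1326 ± 166 normalized counts in Actr3 KO + CB and 490.2 ± 32.1 in dKO (1.43), and the helicase gene Mcm4 was higher by 0.78, while the mitotic genes Cdk1 and Ccnb2 were lower at -0.94 and -0.86. With chromosome medians removed Mcm4 was at 0.35 and Cdk1 at -0.53. Of 13 BCL2 family genes tested of 15, 6 were higher and 6 lower (median -0.09). Hrk, a death-promoting BH3 gene, had 120.3, 132 and 154 normalized counts in Actr3 KO + CB, against 2.79, 4.62 and 5.89 in dKO, at 4.69 ± 0.30 (SE, adjusted p = 7.23e-12), and was low in untreated Actr3 KO and control, at 16.2 ± 2.89 and 14.2 ± 5.46. The survival genes Bcl2 and Mcl1 were higher by 1.12 and 0.80, the second at 0.40 with chromosome medians removed, and the killer gene Bcl2l11 by 0.74.

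Lysosome genes were mostly higher in Actr3 KO + CB. Of 28 lysosome and TFEB genes tested of 30, 25 were higher and 3 lower (median 0.60). Sqstm1, the autophagy receptor p62, had 56135, 57385 and 62616 normalized counts in Actr3 KO + CB, against 19122, 20703 and 20046 in dKO, at 1.56 ± 0.07 (SE, adjusted p = 4.24e-14). Fnip1, a partner of folliculin, had 10917 ± 1860.1 normalized counts in Actr3 KO + CB and 2572 ± 172 in dKO (2.07), Gla, the lysosomal alpha-galactosidase, 1559.7 ± 361 normalized counts in Actr3 KO + CB and 313 ± 12.8 in dKO (2.29), and the cathepsin Ctsz was higher by 0.97. Cholesterol genes went both ways. Of 25 tested of 27, 9 were higher and 14 lower (median -0.18). The synthesis enzyme Mvk, mevalonate kinase, had 549.9, 539 and 513 normalized counts in Actr3 KO + CB, against 1263, 1315 and 1112 in dKO, at -1.20 ± 0.09 (SE, adjusted p = 1.18e-10), with no overlap between the groups. Fdft1, squalene synthase, was lower at -0.79.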

How the data were processed

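Poly(A) RNA libraries were sequenced on an Illumina instrument, per the labels. The submitters' processing notes name fastp 0.23.2, HISAT2 2.2.1, featureCounts 2.0.1, DESeq2 2.11.40.7 and the builds mm10 and GRCm38; the sources used here give neither their order and options nor whether strand was used. The authors deposited a signal per gene and library, called normalized, whose scaling method is not stated: nearly every deposited value is a whole multiple of 1 step per library (100% within a tolerance of 0.01 reads), so whole reads were recovered by division. A step near 1 in the first Actr3 KO library cannot be told from unscaled counts by that check, and count models were run only on the 6 libraries compared. Entrez IDs were named from RefSeq GRCm38.p6 (25269 named, 1910 not). One control column has a name that could mean another control line; it counts as control with no replicate number.

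Values were fitted as log2(value + 1) with limma 3.58.1 (trend, two-sided, all 12 libraries sharing 1 estimate of the spread) in R 4.3.3, and called at an adjusted p under 0.05. The steps were run on simulated counts with few changed genes and no chromosome shifts. That setting differs from these data, so the run does not measure the error of the calls here. No set test was run; lists are described by counts and medians. The genes compared, the 43 lists and the tests were chosen with earlier results of these data known. Genes named are Actr3 and Ift88, the 15 genes with the largest positive and the 15 with the largest negative log2 fold change (called, non-overlapping, averaging 100 or more in the higher group, no predicted or numbered models), and per list the 4 called members of smallest adjusted p, except some that are not reported here; kidney markers, Spry4, Adm and mitochondrial genes were added after their values were seen. Bounds use 3 reads per group; intervals are exact (95%). Replicates of a group differed beyond counting noise, with 7.51 to 16.8 chi-square units per degree of freedom in Actr3 KO + CB and 4.45 to 8.13 in dKO. Each of these was tried instead: chromosome medians removed, quantile normalization, TMM rescaling, pseudocounts 0.5 and 5, a mean filter of 50 or none, the recovered reads in DESeq2 1.42.0 and edgeR 4.0.16, the 6 libraries alone, a replicate block, and leaving out each library.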

Additional observations from a re-analysis of the deposited data

How the results depend on the processing

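The count of genes called was within 1.5 times the value in the report under every alternative tried, at 9121 to 10664, and so were the 2-fold counts except that of higher genes with a mean of at least 50, which was 935 against 1429, where 11698 genes were tested. Quantile normalization moved the median of all genes to -0.09 and gave 4429 higher and 5728 lower; TMM rescaling gave 4796 and 5379, edgeR 4905 and 5062, DESeq2 4864 and 4657, and removed chromosome medians 5053 and 4850. Leaving out 1 library gave 4843 to 4991 higher and 4748 to 4942 lower. The added alternative without the control library of unclear name, chosen after seeing the data, gave 5027 and 5000. With the replicate block 4969 were higher and 4940 lower. Same-numbered libraries of the 2 groups correlated at -0.03, 0.02 and 0.02 in their deviations from group means, so the numbers were not taken to pair samples, and no call of a gene named in the report was lost under the block. Every gene named kept its direction in all alternatives except COX1, which quantile normalization set to 0, and among the genes named the calls of COX1, Pax2 and Pax8 alone changed, all under quantile normalization. Counts of list members called in 1 direction moved by over 1.5 times in 36 cases and stayed within that in 1512; those with 5 or more members are in the report. Genes with few reads, such as Areg, Pdgfra and Slc26a4, are limited by depth.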
